A study of Mus musculus with 8 samples.

Results

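Cholesterol and fatty acid synthesis genes were examined across 4 groups of thymic epithelial cells (TECs). The set held 32 mouse genes, chosen by symbol as targets and regulators of the sterol response together with *Abca1* and *Abcg1*, out of 56923 genes in the count files. By role, 7 code for mevalonate steps, 11 for steps from squalene to cholesterol, 6 for regulators and a carrier of sterols, 6 for fatty acid synthesis, and 2 for cholesterol export. Bulk RNA sequencing was available for 2 libraries of each group, all from untreated wild-type C57BL/6J mice at E16.5. *In vivo* TECs were lysed directly after an EpCAM-based sort, whose antibody panel also marked blood cells (CD45, Ter119), endothelium (CD31) and mesenchyme (PDGFR). TECs cultured in 2D grew on laminin-coated plates for 3 days, to a confluent monolayer. Organoids grew from sorted TECs in Matrigel, a basement membrane hydrogel, and were lysed at day 3 (D3) or day 7 (D7). All cultures received the same medium, which held B-27, N2 and N-acetylcysteine with FGF7. Sorted cells were collected in this medium with added serum and thiazovivin. Thiazovivin was also in the organoid medium for the first 2 days, and whether 2D culture received it is not stated. D3 organoids were thus lysed sooner after this exposure than D7 organoids. The cultured groups differed from *in vivo* TECs in medium as well as in dimension, and these cannot be told apart. The labels call the replicates biological and the study counts them as mice, but whether they came from separate litters is not given in the sources used here, so p-values measure the spread between these libraries.

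Cholesterol is built from acetyl-CoA through mevalonate, squalene and lanosterol, and fatty acids are built from the same precursor. Both routes are under the transcription factors SREBP1 and SREBP2, which stay in the endoplasmic reticulum with their escort SCAP while INSIG proteins hold SCAP back, and which reach the nucleus when sterols run low. In the opposite direction, the oxysterol receptors LXR drive genes that export cholesterol, and LXR also acts on the gene for SREBP1.

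Promoter windows running from 250 bases before to 50 bases after an annotated start were taken from RefSeq on GRCm38.p6, a build other than the GRCm39 of the counts. At least 1 such window was found for 25 of the 32 genes, and not for *Sqle*, *Fdps*, *Fdft1*, *Scd1*, *Scd2*, *Stard4* and *Abcg1*. Each was searched on both strands for the sterol regulatory element TCACNCCAC, the CCAAT box of the factor NF-Y and the E-box CACGTG, and none of these motifs holds the letters of another. The CCAAT box was found in 20 of the 25 genes (80% of them), against 37.4% of all 32851 windows and 41.1% of all genes with a window. The E-box was found in 6 of the 25 genes (24% of them), against 7.15% of all windows and 8.09% of all genes with a window. The strict form of the sterol regulatory element was found in 1 gene, *Hmgcs1* (4% of the 25), against 1.24% of all windows and 1.44% of all genes with a window. Genes with several windows had more chances of a match. The windows below are from 5 genes that rose in all 3 cultured groups and from *Elovl6*, whose pattern over the groups differed. They were chosen after the levels were seen. Capitals mark a match of any of the 3 motifs on either strand, so a CCAAT box on the other strand is read as its reverse complement.
Hmgcs1: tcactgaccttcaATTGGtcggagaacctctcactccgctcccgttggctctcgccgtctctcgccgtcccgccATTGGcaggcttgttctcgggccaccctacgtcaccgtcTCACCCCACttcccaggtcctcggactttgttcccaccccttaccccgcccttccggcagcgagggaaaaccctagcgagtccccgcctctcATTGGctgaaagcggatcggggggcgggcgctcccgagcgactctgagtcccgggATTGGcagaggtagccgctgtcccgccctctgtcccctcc
Insig1: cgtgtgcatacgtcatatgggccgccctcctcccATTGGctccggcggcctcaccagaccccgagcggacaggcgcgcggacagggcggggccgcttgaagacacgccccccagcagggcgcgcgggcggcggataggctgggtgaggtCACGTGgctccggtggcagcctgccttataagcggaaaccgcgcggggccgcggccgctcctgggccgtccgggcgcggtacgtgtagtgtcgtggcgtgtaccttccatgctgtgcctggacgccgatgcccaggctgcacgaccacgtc
Msmo1: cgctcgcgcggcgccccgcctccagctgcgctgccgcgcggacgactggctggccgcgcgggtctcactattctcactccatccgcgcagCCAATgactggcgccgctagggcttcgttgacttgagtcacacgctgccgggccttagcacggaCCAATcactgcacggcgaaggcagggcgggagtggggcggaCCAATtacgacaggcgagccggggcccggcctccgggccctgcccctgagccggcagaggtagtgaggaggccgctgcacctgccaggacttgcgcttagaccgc
Cyp51: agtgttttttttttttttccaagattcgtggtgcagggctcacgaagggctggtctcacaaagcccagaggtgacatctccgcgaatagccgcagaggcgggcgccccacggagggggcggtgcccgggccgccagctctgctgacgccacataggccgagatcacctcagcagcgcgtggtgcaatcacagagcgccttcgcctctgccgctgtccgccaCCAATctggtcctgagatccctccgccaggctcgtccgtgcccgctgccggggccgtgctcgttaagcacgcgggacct
Lss: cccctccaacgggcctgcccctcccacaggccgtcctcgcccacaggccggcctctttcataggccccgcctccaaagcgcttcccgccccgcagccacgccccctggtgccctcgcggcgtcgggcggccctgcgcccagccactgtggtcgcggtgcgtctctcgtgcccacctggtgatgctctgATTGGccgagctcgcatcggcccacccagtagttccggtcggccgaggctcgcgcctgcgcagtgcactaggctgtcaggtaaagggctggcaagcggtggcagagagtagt
Elovl6: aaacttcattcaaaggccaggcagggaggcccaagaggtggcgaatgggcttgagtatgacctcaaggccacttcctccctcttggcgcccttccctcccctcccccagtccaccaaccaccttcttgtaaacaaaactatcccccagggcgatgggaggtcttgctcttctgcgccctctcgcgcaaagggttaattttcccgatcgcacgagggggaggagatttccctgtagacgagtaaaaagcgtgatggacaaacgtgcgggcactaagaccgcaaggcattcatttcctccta
These windows lie at chr13:119690101-119690400 (plus strand), chr5:28071162-28071461 (plus strand), chr8:64733529-64733828 (minus strand), chr5:4104648-4104947 (minus strand), chr10:76531355-76531654 (plus strand) and chr3:129532136-129532435 (plus strand), in the order printed. *Hmgcs1* held 4 CCAAT boxes and the single strict sterol regulatory element, *Msmo1* held 3 CCAAT boxes, and *Elovl6* held none of the 3 motifs. A match describes the letters of a window, and occupancy by any factor was not measured.

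**Figure D1:**
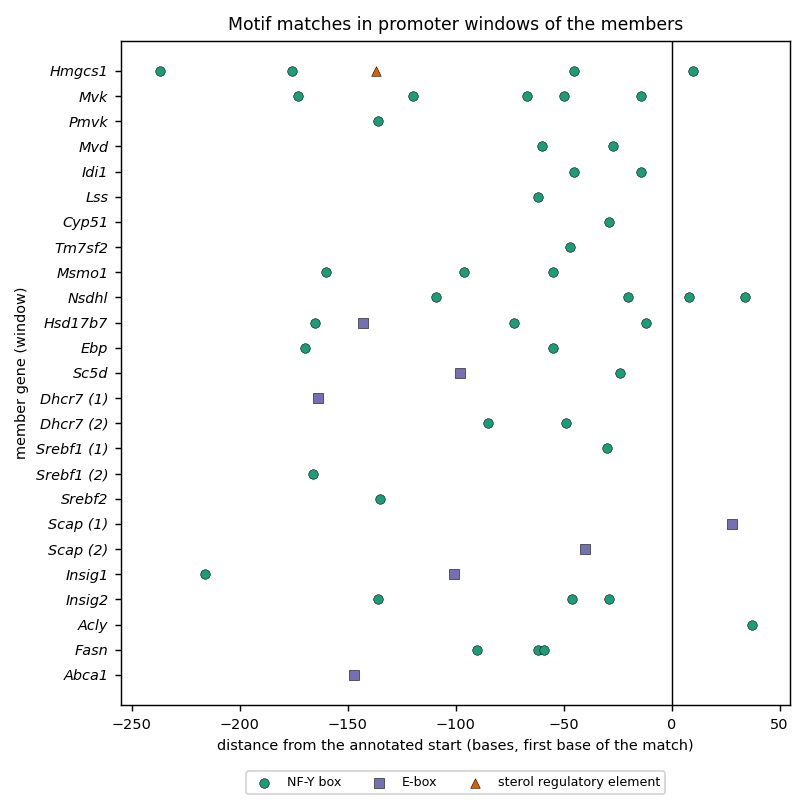
Positions of the 3 motifs in the promoter windows of the members that held a match. The horizontal axis gives the distance of the first base of a match from the annotated start in bases, each line is a window of a named gene, and circles, squares and the triangle mark the CCAAT (NF-Y) box, the E-box and the sterol regulatory element. The CCAAT box was present in 20 of 25 genes, and the sterol regulatory element in *Hmgcs1*.

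QuantSeq libraries count transcripts by reads from near the poly(A) tail, at the 3′ end. Between 5084715 and 7612532 reads were counted on genes per library, and ribosomal RNA genes took between 22.7% and 29.4% of them. Levels are given as counts per 1000000 (CPM) on library sizes scaled by the TMM method, and are compared for a gene between groups, not between genes. Of 6 thymic epithelial genes, 4 were higher and 2 lower in 2D culture, 1 was higher and 4 lower in D3 organoids, and 1 was higher and 5 lower in D7 organoids than *in vivo*. The one higher in all 3 was *Epcam*, at 191 and 204 CPM *in vivo*, 812 and 722 in 2D culture, 594 and 569 in D3 organoids, and 441 and 441 in D7 organoids. The keratin gene *Krt8* was at 376 and 459.7 CPM *in vivo*, 1020.1 and 894 in 2D culture, 103 and 87.3 in D3 organoids, and 82.5 and 65.9 in D7 organoids, and *Krt18* at 1654 and 1821 CPM *in vivo*, 3588 and 3149 in 2D culture, 266 and 250.2 in D3 organoids, and 483 and 495 in D7 organoids, so both were lower in organoids and higher in 2D culture. *Krt5* was lower at D7, and *Foxn1*, the master regulator of TECs, was lower in all 3 cultured groups. *Psmb11*, a proteasome subunit of cortical TECs, was at 520.2 and 553 CPM *in vivo*, 0.544 and 0.555 in 2D culture, 0.506 and 0.977 in D3 organoids, and 106 and 112 in D7 organoids, and thus near the floor of detection in 2D culture and D3 organoids. The summed level of 7 thymocyte genes was 598 and 256 CPM *in vivo* and between 2.36 and 8.28 CPM in the cultures, and all 3 of them that could be tested were lower in each cultured group. The 7 mesenchyme genes summed to between 17.9 and 79.3 CPM, highest in D7 organoids. *Cdh5* of endothelium and *Lep* of adipocytes had no count in any library, and the 4 adipocyte genes summed to at most 1.86 CPM. The summed level of 8 proliferation genes was 1311 and 1276 CPM *in vivo*, 500.0 and 418 in 2D culture, 2061 and 1831 in D3 organoids, and 1058 and 1138 in D7 organoids.

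All 32 members passed the filter on low counts and were among the 14504 genes tested. The adjusted p is that of edgeR's quasi-likelihood test after Benjamini-Hochberg correction over all of them, and values of at most 0.05 were past the threshold. Every log2 fold change puts the group named first over the other and comes with its standard error (SE). With 2 libraries a group, an exact two-sided permutation test cannot go below p = 0.333, so the calls rest on a spread estimated over genes and groups. In bulk RNA, a change in the share of cells that express a gene and a change in RNA per cell cannot be told apart.

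Cultured TECs had more RNA of most of these genes than *in vivo* TECs, and D3 organoids had the most. The summed level of the 32 members was 1583 and 1424 CPM *in vivo*, 2548 and 2467 in 2D culture, 3502 and 3454 in D3 organoids, and 2352 and 2357 in D7 organoids. Such a sum leans on genes with many counts. *Scd2* alone gave 465 and 453 CPM *in vivo*, 694 and 664 in 2D culture, 646 and 668 in D3 organoids, and 408 and 360.0 in D7 organoids. The order of 2D culture and D7 organoids in the sum is thus not read. The mean level was highest in D3 organoids for 18 members, in 2D culture for 6, in D7 organoids for 5 and *in vivo* for 3, and it was lowest *in vivo* for 25. The *in vivo* libraries lay below all 6 cultured libraries in the summed level, and the D3 libraries above all others.

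In D3 organoids against *in vivo* TECs, 26 of the 32 members were higher and 1 was lower, against 14.1% of all genes higher and 14.0% lower. The median log2 fold change of the members was 1.62, beside -0.01 over all genes. In D7 organoids, 24 members were higher and 1 was lower than *in vivo*, against 18.0% and 16.8% of all genes, with a median of 0.997 beside 0.01. In 2D culture, 20 members were higher and 3 lower than *in vivo*, against 19.9% and 21.7% of all genes, with a median of 0.87 beside -0.06. Leaving out 2D replicate 2 raised the count of lower members from 3 to 5, and the count of lower members in D3 organoids was 0 without *in vivo* replicate 1 or without D3 replicate 1 and 2 without D3 replicate 2. These 3 comparisons share the *in vivo* libraries, which had the highest summed level of thymocyte genes. Of the 8 proliferation genes, 8 were lower in 2D culture, 4 were higher in D3 organoids and 3 were lower in D7 organoids. The part of thymocyte RNA or of proliferation in these differences was not tested.

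**Figure D2:**
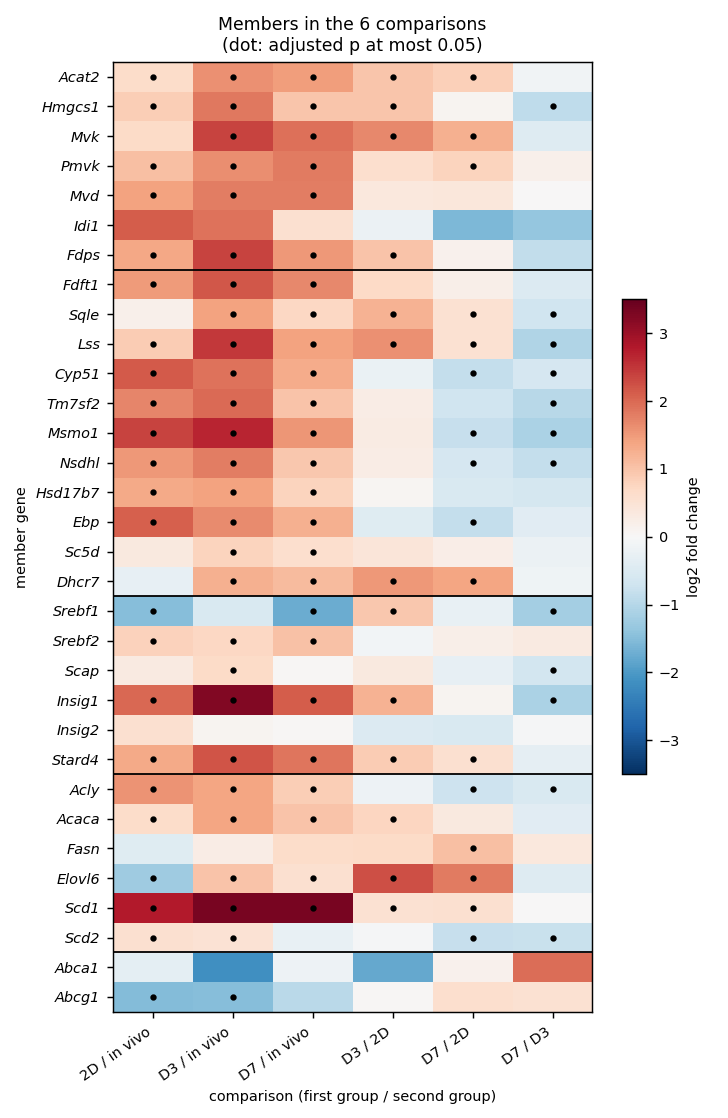
Log2 fold change of the 32 members (lines, in the order of the pathway) in the 6 comparisons between groups (columns, first group over second). Colour gives the log2 fold change, and a dot marks an adjusted p of at most 0.05 in edgeR's quasi-likelihood test. The columns against *in vivo* TECs are mostly red, and in the last column, D7 over D3 organoids, 12 members are lower and 0 are higher.

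Against *in vivo* TECs, 5 of the 7 mevalonate genes rose in 2D culture, 6 rose in D3 organoids and 6 in D7 organoids, and none fell. *Hmgcs1* codes for HMG-CoA synthase, which feeds the rate-limiting step of the pathway. Its levels were 186 and 154 CPM *in vivo*, 321 and 302 in 2D culture, 676 and 549 in D3 organoids, and 320.3 and 345 in D7 organoids. The D3 libraries stood above all others, the 2D and D7 libraries overlapped, and the *in vivo* libraries were lowest. *Hmgcs1* had a log2 fold change of 1.84 (SE 0.16, adjusted p = 1.19e-07) for D3 organoids over *in vivo* TECs, 0.97 (SE 0.16, adjusted p = 8.77e-05) for D3 organoids over 2D culture and -0.88 (SE 0.16, adjusted p = 8.23e-04) for D7 over D3 organoids.

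Mevalonate kinase, coded by *Mvk*, phosphorylates mevalonate. *Mvk* was measured at 1.56 and 5.75 CPM *in vivo*, 4.17 and 7.96 in 2D culture, 16.4 and 22.3 in D3 organoids, and 12.7 and 15.97 in D7 organoids, with 9 and 41 counts in the *in vivo* libraries, so its lower levels are coarse. The organoid libraries all lay above the 2D and *in vivo* libraries, which overlapped. *Mvk* had a log2 fold change of 2.36 (SE 0.46, adjusted p = 8.79e-04) for D3 organoids and 1.92 (SE 0.47, adjusted p = 0.00418) for D7 organoids over *in vivo* TECs. These were 1.75 and 1.30 without *in vivo* replicate 1 and 3.63 and 3.18 without *in vivo* replicate 2, past the threshold each time. Over 2D culture it was 1.67 (SE 0.45, adjusted p = 0.00677) in D3 organoids and 1.24 (SE 0.45, adjusted p = 0.0338) in D7 organoids. Both of the latter lost their call without 2D replicate 1, at 1.28 (adjusted p = 0.0958) and 0.84 (adjusted p = 0.255). The D3 call was also lost without D3 replicate 2, at 1.45 (adjusted p = 0.0664), and the D7 call without D3 replicate 2 or either D7 replicate, where the adjusted p was 0.0594, 0.0527 and 0.143.

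*Fdps* makes farnesyl diphosphate, the branch point towards sterols and protein prenylation. The gene was at 3.81 and 3.93 CPM *in vivo*, 9.25 and 10.7 in 2D culture, 17.9 and 22.2 in D3 organoids, and 11.4 and 10.8 in D7 organoids, and 10.1% of the 50-base words from its 3′ ends also occur in other genes, mostly predicted ones with low counts. D3 organoids were highest, and the 2D and D7 libraries lay between them and the *in vivo* libraries. *Fdps* rose in D3 organoids over *in vivo* TECs, with a log2 fold change of 2.36 (SE 0.33, adjusted p = 3.39e-05). *Acat2*, *Pmvk* and *Mvd* also rose in all 3 cultured groups, with log2 fold changes between 0.65 and 1.82. The lowest of these, *Acat2* in 2D culture, lost its call without *in vivo* replicate 2, at 0.43 (adjusted p = 0.146), and without 2D replicate 1, at 0.43 (adjusted p = 0.181). *Idi1*, an isomerase whose 3′ words are shared with its pseudogenes at 29.4%, was below 5 CPM in every library and passed the threshold in no comparison.

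All 11 genes for the steps from squalene to cholesterol rose in organoids of both days against *in vivo* TECs, and 8 of them rose in 2D culture. At D7, however, 5 of the 11 lost their call when some single libraries were left out. The highest adjusted p was then 0.0552 for *Sqle*, 0.216 for *Tm7sf2*, 0.221 for *Hsd17b7*, 0.144 for *Sc5d* and 0.228 for *Dhcr7*, reached without D7 replicate 1 for the first and second, without *in vivo* replicate 2 for the next pair and without D7 replicate 2 for *Dhcr7*. With all libraries, *Tm7sf2* and *Dhcr7* also lost it with the DESeq2 Wald test, and *Tm7sf2* and *Hsd17b7* with only the groups compared. In 2D culture *Fdft1* lost its call without 2D replicate 1, at 1.07 (adjusted p = 0.0651). *Sqle* codes for squalene epoxidase, an oxygen-dependent control point of the pathway. *Sqle* levels were 71.98 and 67.1 CPM *in vivo*, 82.9 and 74.6 in 2D culture, 186 and 184 in D3 organoids, and 127 and 102 in D7 organoids. The D3 libraries were highest, the D7 libraries intermediate, and 2D culture lay close above the *in vivo* libraries. For *Sqle*, the log2 fold change was 1.41 (SE 0.17, adjusted p = 4.71e-06) for D3 organoids over *in vivo* TECs and 0.18 (SE 0.17, adjusted p = 0.425) for 2D culture over *in vivo* TECs, which was not past the threshold.

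Lanosterol synthase, coded by *Lss*, closes the sterol ring. The level of *Lss* was 13.5 and 11.2 CPM *in vivo*, 24.3 and 21.1 in 2D culture, 67.7 and 69.9 in D3 organoids, and 34.9 and 30.6 in D7 organoids, with no overlap between any pair of groups. Its log2 fold change was 2.47 (SE 0.22, adjusted p = 1.51e-07) for D3 organoids over *in vivo* TECs, 1.60 (SE 0.21, adjusted p = 1.06e-05) for D3 organoids over 2D culture and -1.07 (SE 0.20, adjusted p = 0.0014) for D7 over D3 organoids.

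*Cyp51*, the lanosterol demethylase, had another order of groups. Its levels were 46.2 and 45.2 CPM *in vivo*, 210.1 and 193 in 2D culture, 175 and 166 in D3 organoids, and 111 and 116 in D7 organoids. Here 2D culture was highest, and the 4 groups did not overlap. *Cyp51* had a log2 fold change of 2.14 (SE 0.16, adjusted p = 8.29e-09) for 2D culture over *in vivo* TECs, and that for D3 organoids over 2D culture, -0.24 (SE 0.15, adjusted p = 0.212), was not past the threshold. *Cyp51* fell in D7 organoids against 2D culture, with a log2 fold change of -0.83 (SE 0.15, adjusted p = 2.51e-04).

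*Msmo1* codes for a methylsterol oxidase that acts after *Cyp51*, on the methyl groups of the sterol ring. The levels of *Msmo1* were 34.1 and 22.7 CPM *in vivo*, 152 and 141 in 2D culture, 165 and 193 in D3 organoids, and 83.1 and 83.8 in D7 organoids. The *in vivo* libraries were lowest and the D7 libraries next, 2D culture lay above them, and D3 organoids were highest. For *Msmo1*, the log2 fold change was 2.37 (SE 0.20, adjusted p = 3.42e-08) in 2D culture, 2.66 (SE 0.20, adjusted p = 1.71e-08) in D3 organoids and 1.56 (SE 0.20, adjusted p = 9.14e-06) in D7 organoids over *in vivo* TECs, and -1.10 (SE 0.18, adjusted p = 5.21e-04) for D7 over D3 organoids. *Tm7sf2*, *Nsdhl*, *Hsd17b7* and *Ebp*, which act after *Cyp51* on the sterol ring, also rose in 2D culture, by between 1.32 and 2.08 on the log2 scale. None of *Cyp51*, *Tm7sf2*, *Msmo1*, *Nsdhl*, *Hsd17b7* and *Ebp* passed the threshold between D3 organoids and 2D culture, where their log2 fold changes ran from -0.43 to 0.29, while *Sqle*, *Lss* and *Dhcr7* rose. *Fdft1* and *Sc5d*, also of the sterol steps, were not past the threshold here either. Without scaling beyond library totals, *Fdft1*, *Sc5d* and *Msmo1* passed it, at 0.94, 0.68 and 0.55. This contrast between neighbouring steps was noticed after the values were seen, and the difference between the genes was not tested.

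The last reductase of the pathway, coded by *Dhcr7*, was at 9.34 and 9.26 CPM *in vivo*, 3.45 and 11.8 in 2D culture, 21.4 and 22.5 in D3 organoids, and 16.7 and 23.5 in D7 organoids. The 2D libraries stood apart from each other, on either side of the *in vivo* level, and all 4 organoid libraries were above both groups. The log2 fold change was 1.23 (SE 0.38, adjusted p = 0.0234) for D3 organoids over *in vivo* TECs and 1.52 (SE 0.40, adjusted p = 0.00585) over 2D culture. The first lost its call when any 1 of the 4 libraries concerned was left out, with an adjusted p between 0.0702 and 0.0852. The second lost it without 2D replicate 1, at 0.89 (adjusted p = 0.0757), and was 2.66 without 2D replicate 2. *Dhcr7* over 2D culture in D7 organoids was 1.38 (SE 0.40, adjusted p = 0.00938), which became 0.75 (adjusted p = 0.118) without 2D replicate 1, 1.13 (adjusted p = 0.0736) without D7 replicate 2 and 2.53 without 2D replicate 2.

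**Figure D3:**
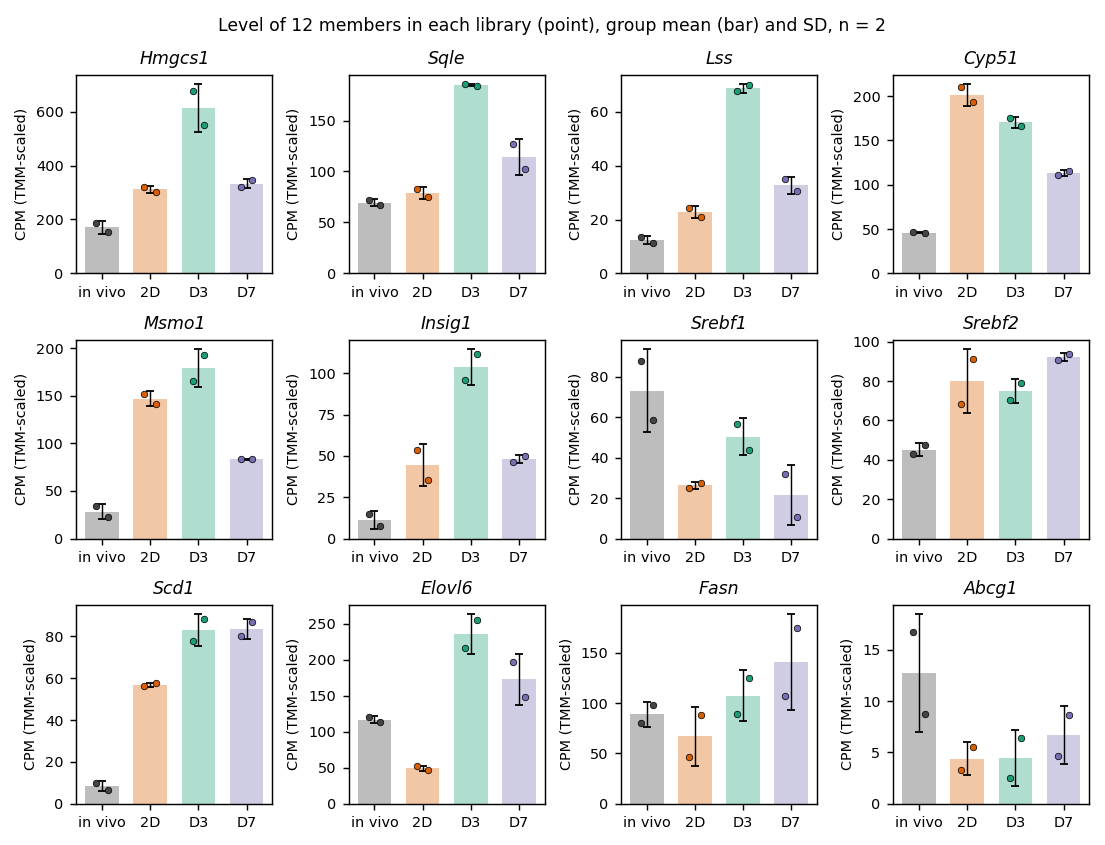
Levels of 12 members in each library. The vertical axis of each panel gives CPM on TMM-scaled library sizes, points are libraries, bars are group means and error bars are the SD (n = 2). *Hmgcs1*, *Sqle*, *Lss* and *Insig1* peak in D3 organoids, *Cyp51* in 2D culture, and *Srebf1* is highest *in vivo*.

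The regulators did not move as a block. *Insig1*, itself a target of SREBP that retains SCAP in the endoplasmic reticulum, was measured at 15.1 and 7.30 CPM *in vivo*, 53.7 and 35.5 in 2D culture, 96.01 and 111 in D3 organoids, and 46.4 and 49.7 in D7 organoids. Both D3 libraries were above all others, 2D culture and D7 organoids overlapped, and the *in vivo* libraries were lowest. Over *in vivo* TECs, *Insig1* had a log2 fold change of 2.01 (SE 0.28, adjusted p = 2.07e-05) in 2D culture, 3.23 (SE 0.28, adjusted p = 1.41e-07) in D3 organoids and 2.12 (SE 0.28, adjusted p = 1.86e-05) in D7 organoids. Without *in vivo* replicate 1 these were 2.61, 3.82 and 2.71. Its paralog *Insig2* was at 19.6 and 22.2 CPM *in vivo*, 30.7 and 31.5 in 2D culture, 27.7 and 17.2 in D3 organoids, and 23.6 and 19.1 in D7 organoids, and passed the threshold in no comparison. The 2D libraries stood above the others, which overlapped each other. Without D3 replicate 2 the log2 fold change for 2D culture over *in vivo* TECs passed it, at 0.62 (adjusted p = 0.0428), and without D3 replicate 1 so did that for D3 organoids over 2D culture, at -0.86 (adjusted p = 0.0398).

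The genes for the SREBPs themselves went apart. *Srebf1* levels were 87.6 and 58.7 CPM *in vivo*, 24.9 and 27.6 in 2D culture, 56.7 and 43.95 in D3 organoids, and 31.8 and 10.8 in D7 organoids, and *Srebf2* levels were 42.9 and 47.6 CPM *in vivo*, 68.4 and 91.5 in 2D culture, 70.5 and 79.1 in D3 organoids, and 90.7 and 93.7 in D7 organoids. *Srebf1* was highest *in vivo*, with the D7 libraries far apart from each other and overlapping 2D culture, and *Srebf2* was lowest *in vivo*. *Srebf1* fell in 2D culture, with a log2 fold change of -1.48 (SE 0.33, adjusted p = 0.00173), and in D7 organoids, at -1.74 (SE 0.33, adjusted p = 6.21e-04). The latter was -2.75 without D7 replicate 1 and -1.20 without D7 replicate 2, past the threshold both times. *Srebf2* rose in both, at 0.82 (SE 0.19, adjusted p = 0.00189) and 1.02 (SE 0.18, adjusted p = 3.64e-04). Between organoid days, *Srebf1* had a log2 fold change of -1.19 (SE 0.33, adjusted p = 0.0174), which became -1.002 (adjusted p = 0.138) without D3 replicate 1, -0.66 (adjusted p = 0.176) without D7 replicate 2 and -2.21 without D7 replicate 1. The counts join the transcripts of *Srebf1*, so its isoforms were not told apart.

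*Scap* passed the threshold for D3 organoids over *in vivo* TECs at 0.67 (SE 0.18, adjusted p = 0.0108), which was lost without D3 replicate 1, at 0.64 (adjusted p = 0.0514). *Stard4*, which codes for a soluble sterol carrier and is a target of SREBP2, was at 21.8 and 17.4 CPM *in vivo*, 43.2 and 54.6 in 2D culture, 100.4 and 79.4 in D3 organoids, and 72.7 and 70.2 in D7 organoids. All 6 cultured libraries lay above the *in vivo* libraries, and the D3 and D7 libraries above 2D culture. Its log2 fold change for D3 organoids over *in vivo* TECs was 2.19 (SE 0.21, adjusted p = 3.69e-07).

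Of the 6 genes for fatty acid synthesis, 4 rose and 1 fell in 2D culture, 5 rose in D3 organoids and 4 rose in D7 organoids against *in vivo* TECs. The rise of *Acaca* in 2D culture lost its call without *in vivo* replicate 1, at 0.52 (adjusted p = 0.141), and without 2D replicate 2, at 0.39 (adjusted p = 0.275). *Scd1*, a desaturase that makes monounsaturated fatty acids, was measured at 10.04 and 6.60 CPM *in vivo*, 56.2 and 57.6 in 2D culture, 77.6 and 88.3 in D3 organoids, and 80.05 and 86.8 in D7 organoids. All 6 cultured libraries lay far above both *in vivo* libraries. Its log2 fold change over *in vivo* TECs was 2.78 (SE 0.23, adjusted p = 2.48e-08) in 2D culture, 3.33 (SE 0.22, adjusted p = 5.45e-09) in D3 organoids and 3.33 (SE 0.22, adjusted p = 6.09e-09) in D7 organoids, the largest rise of any member in each of these comparisons. *Scd2*, the paralog, was at 465 and 453 CPM *in vivo*, 694 and 664 in 2D culture, 646 and 668 in D3 organoids, and 408 and 360.0 in D7 organoids. It was highest in 2D culture and D3 organoids, which overlapped, and lowest in D7 organoids, where it was -0.82 (SE 0.14, adjusted p = 1.33e-04) against 2D culture and -0.77 (SE 0.14, adjusted p = 9.40e-04) against D3 organoids.

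*Elovl6*, which elongates palmitate to stearate, went in opposite directions in the cultures. Its levels were 121 and 113 CPM *in vivo*, 51.9 and 46.5 in 2D culture, 217 and 255 in D3 organoids, and 198 and 148 in D7 organoids. Both 2D libraries lay below the *in vivo* libraries, and all 4 organoid libraries above them. The log2 fold change over *in vivo* TECs was -1.25 (SE 0.18, adjusted p = 2.29e-05) in 2D culture and 1.01 (SE 0.17, adjusted p = 2.40e-04) in D3 organoids. The difference between these, tested directly as D3 organoids over 2D culture, was 2.26 (SE 0.18, adjusted p = 3.30e-08), and that for D7 organoids over 2D culture was 1.82 (SE 0.18, adjusted p = 3.57e-07).

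Fatty acid synthase, coded by *Fasn*, was at 80.3 and 97.8 CPM *in vivo*, 46.3 and 87.8 in 2D culture, 89.6 and 125 in D3 organoids, and 107 and 174 in D7 organoids, with a wide spread in the cultured groups. Replicate 1 was below replicate 2 in all 4 groups. The D3 libraries overlapped the *in vivo* and D7 libraries, and 2D culture overlapped the *in vivo* libraries. It passed the threshold in 1 comparison, D7 organoids over 2D culture, at 1.06 (SE 0.27, adjusted p = 0.00417), which became 0.67 (adjusted p = 0.0925) without 2D replicate 1 and 0.68 (adjusted p = 0.0777) without D7 replicate 2. For D3 organoids over 2D culture the log2 fold change was 0.68 (SE 0.27, adjusted p = 0.0564). It was past the threshold with all libraries in most other settings, among them limma-voom, at 0.74 (adjusted p = 0.0254), and DESeq2, at 0.68 (adjusted p = 0.0478), and without 2D replicate 2 it was 1.22 (adjusted p = 0.00891). Leaving out single libraries also took *Fasn* past the threshold in 2D culture and in D7 organoids over *in vivo* TECs. *Acly*, which supplies cytosolic acetyl-CoA from citrate, was at 58.5 and 55.9 CPM *in vivo*, 169 and 171 in 2D culture, 158 and 141 in D3 organoids, and 102 and 105 in D7 organoids and was highest in 2D culture. The log2 fold change of *Acly* in 2D culture over *in vivo* TECs was 1.57 (SE 0.16, adjusted p = 3.65e-07). *Acaca*, which makes malonyl-CoA, was at 18.00 and 21.6 CPM *in vivo*, 26.1 and 35.9 in 2D culture, 48.3 and 55.9 in D3 organoids, and 38.4 and 40.8 in D7 organoids and was highest in D3 organoids, with 1.39 (SE 0.22, adjusted p = 1.26e-04) over *in vivo* TECs.

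Neither of the 2 LXR targets passed the threshold upwards in any comparison of the main test. *Abca1*, which exports cholesterol to apolipoprotein A-I, was at 4.50 and 5.19 CPM *in vivo*, 2.54 and 5.18 in 2D culture, 0 and 2.09 in D3 organoids, and 4.83 and 3.75 in D7 organoids, from 0 and 15 counts in the D3 libraries, and passed the threshold in no comparison of this test. With limma-voom and all libraries, it passed for D7 over D3 organoids, at 3.23 (adjusted p = 0.0495), and for D3 organoids over *in vivo* TECs, at -3.38 (adjusted p = 0.0306). The latter also passed without a filter on low counts, at -2.04, and with a replicate block, at -2.33. Without D3 replicate 2, which left the library with no count to stand for D3 organoids, the latter was -7.88. *Abcg1*, which exports cholesterol to high-density lipoprotein, was at 16.8 and 8.70 CPM *in vivo*, 3.27 and 5.55 in 2D culture, 2.53 and 6.42 in D3 organoids, and 4.70 and 8.68 in D7 organoids. Its *in vivo* libraries were the highest on average, though the lower of them lay just above the higher D7 library. The log2 fold change was -1.53 (SE 0.53, adjusted p = 0.0274) in 2D culture and -1.49 (SE 0.52, adjusted p = 0.0403) in D3 organoids over *in vivo* TECs. Without *in vivo* replicate 1 these became -0.98 (adjusted p = 0.229) and -0.94 (adjusted p = 0.3), the first also became -1.19 (adjusted p = 0.19) without 2D replicate 1, and the second -0.99 (adjusted p = 0.274) without D3 replicate 1 and -2.25 without D3 replicate 2. Both genes are also expressed by other cell types, such as the blood cells that CD45 marked in the sort. The 4 macrophage genes summed to at most 12.1 CPM in any library. The 7 thymocyte genes summed to 598 and 256 CPM *in vivo* and to between 2.36 and 8.28 CPM in the cultures. The part of other cells in the level of *Abcg1* was not tested.

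**Figure D4:**
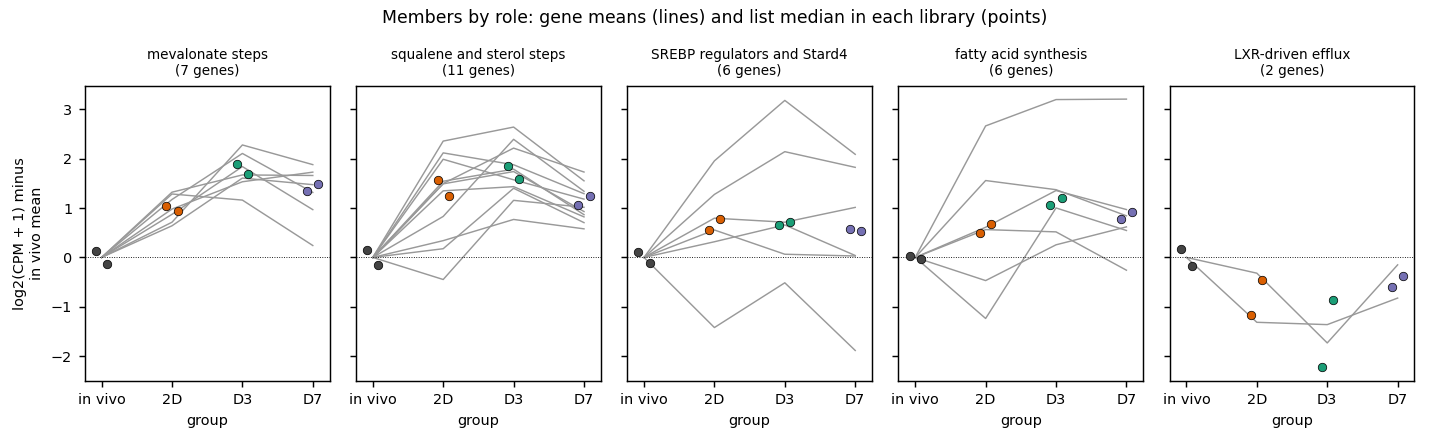
Members by role, as log2(CPM + 1) minus the *in vivo* mean of each gene. Lines join the group means of single genes over the 4 groups on the horizontal axis, and points are the median of the role in each library. Medians of the mevalonate and sterol genes are above 0 in all cultured libraries, while those of the 2 LXR targets are below 0.

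Between D3 organoids and 2D culture, both lysed after 3 days, 13 members were higher and 0 were lower, against 19.3% and 19.1% of all genes. The median log2 fold change of the members was 0.48, beside 0.03 over all genes. By role, 4 of 7 mevalonate genes, 3 of 11 squalene and sterol genes, 3 of 6 regulators and 3 of 6 fatty acid genes were higher. Without any one of the 2D or D3 libraries, fewer members were higher, as were fewer of all genes. With a library left out, the median of the members ran from 0.44 to 0.59. All 8 proliferation genes were also higher in D3 organoids than in 2D culture, and their part in the difference was not tested.

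Between D7 organoids and 2D culture, 10 members were higher and 6 were lower, against 24.4% and 21.1% of all genes. The median of the members was 0.18, beside 0.10. The counts of higher and of lower members and the median were thus near those of all genes, and nothing is read from the counts. The 6 lower members were *Cyp51*, *Msmo1*, *Nsdhl*, *Ebp*, *Acly* and *Scd2*, of which *Nsdhl* lost its call without 2D replicate 1, at -0.45 (adjusted p = 0.222), without 2D replicate 2, at -0.70 (adjusted p = 0.0552), and without D7 replicate 1, at -0.43 (adjusted p = 0.258). Fewer members were higher without any one of the 2D or D7 libraries, as were fewer of all genes. With a library left out, the median of the members ran from 0.13 to 0.18. These groups differ in days of culture as well as in format.

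From D3 to D7, 12 members were lower and 0 were higher, against 9.91% of all genes lower and 10.9% higher. The median log2 fold change of the members was -0.47, beside 0.06 over all genes. The lower members were 1 of the 7 mevalonate genes (*Hmgcs1*), 6 of the 11 squalene and sterol genes (*Sqle*, *Lss*, *Cyp51*, *Tm7sf2*, *Msmo1* and *Nsdhl*), 3 of the 6 regulators (*Srebf1*, *Scap* and *Insig1*) and 2 of the 6 fatty acid genes (*Acly* and *Scd2*). *Insig1* had a log2 fold change of -1.11 (SE 0.25, adjusted p = 0.00476). Of the 12, *Hmgcs1*, *Lss*, *Msmo1*, *Insig1* and *Scd2* were past the threshold whichever single library was left out. Fewer members were lower without D3 replicate 1 or without either D7 library, as were fewer of all genes. With a library left out, the median of the members ran from -0.55 to -0.43. At D7, 24 members were still higher than *in vivo*, as given above. All 8 proliferation genes were lower at D7 than at D3, and their part in the difference was not tested.

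Further genes of these pathways were listed as well. A list of 18 held other sterol synthesis genes and SREBP targets, with genes for NF-Y and for the proteases that cleave SREBPs. Of these 18, 7 were higher and 3 lower in 2D culture, 11 higher and 1 lower in D3 organoids, and 8 higher and 1 lower in D7 organoids against *in vivo* TECs. Their median log2 fold change was 0.46, 1.01 and 0.53 in the same order. Of all genes, 19.9%, 14.1% and 18.0% were higher and 21.7%, 14.0% and 16.8% lower. The largest changes in this list over *in vivo* TECs were in *Me1*, the malic enzyme that supplies NADPH, with 2.75 (SE 0.24, adjusted p = 7.72e-08) in 2D culture, and in *Fads1*, a desaturase of polyunsaturated fatty acids, with 2.91 (SE 0.19, adjusted p = 3.22e-09) in D3 organoids. From D3 to D7, 8 of the 18 were lower and 1 was higher, with a median of -0.41, against 9.91% of all genes lower and 10.9% higher. *Aacs*, which activates acetoacetate for lipid synthesis, was among the lower ones at -1.57 (SE 0.26, adjusted p = 4.37e-04).

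Of 6 other LXR targets and receptors, 1 was higher and 1 lower in 2D culture, 1 higher and 1 lower in D3 organoids, and 2 higher and 0 lower in D7 organoids against *in vivo* TECs. The shares of all genes were 19.9%, 14.1% and 18.0% higher and 21.7%, 14.0% and 16.8% lower, in the same order. With 6 genes in the list, nothing is read from these counts. *Arl4c*, a small GTPase and LXR target, was at 17.3 and 10.9 CPM *in vivo*, 214 and 204 in 2D culture, 34.8 and 38.1 in D3 organoids, and 60.7 and 73.2 in D7 organoids, highest in 2D culture. Its log2 fold change over *in vivo* TECs was 3.89 (SE 0.22, adjusted p = 2.95e-10) in 2D culture and 2.25 (SE 0.22, adjusted p = 4.32e-07) in D7 organoids, and it was -2.52 (SE 0.20, adjusted p = 3.20e-08) for D3 organoids over 2D culture. *Mylip*, of the same list, went the other way and was lowest in 2D culture. Its levels were 65.1 and 55.9 CPM *in vivo* and 17.1 and 12.03 in 2D culture. In organoids, *Mylip* was at 29.02 and 38.8 CPM at D3 and 52.7 and 45.5 at D7. All cultured libraries thus lay below both *in vivo* libraries for *Mylip*.

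Some members share sequence or position with other genes, and the strand setting of the counting is not given in the sources used here. The annotated bounds of *Acat2* overlap those of *Tcp1* on the other strand, which had a mean of 1374 counts beside 528 for *Acat2*, and 14% of the 3′ words of *Acat2* occur in other genes. *Fdft1* overlaps *Ctsb*, *Sqle* overlaps *Washc5*, *Cyp51* overlaps *Akap9*, *Nsdhl* overlaps *Cetn2*, *Srebf1* overlaps *Rai1* and *Scap* overlaps *Ptpn23* on the other strand, and *Tm7sf2* overlaps *Vps51* on the same strand. Reads of such pairs may have been joined in these counts.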

How the data were processed

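Bulk RNA sequencing of 8 libraries was analysed, with 2 libraries for each of 4 groups taken from the labels. The authors sequenced QuantSeq 3′ libraries on a NextSeq 500, used STAR for alignment to GRCm39, and deposited a file of read counts per Ensembl gene for every library, without normalization. The counting tool, annotation release and strand setting are not given in the sources used here. Reads from the 3′ end make a level depend on the annotated 3′ end of a gene. Of the gene IDs, 56236 were matched to symbols. Replicates differed by more than sampling noise (chi-square per degree of freedom 7.43 to 9.42).

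Counts were tested in R 4.3.3 with edgeR 4.0.16 (TMM factors 0.880 to 1.09, glmQLFit and glmQLFTest, group as the only term, all 8 libraries) after keeping 14504 genes that reached 1 CPM in 3 or more libraries. The adjusted p (Benjamini-Hochberg over all genes tested) had a threshold of 0.05, and the SE is the absolute log2 fold change over the square root of F. A gene with 3 counts or fewer was taken as at the floor, which covers counting error only. The procedure was tested on simulated counts. Alternatives used DESeq2 1.42.0, limma 3.58.1 (voom, the authors' test), other scalings and filters, a replicate block, only the groups compared, and each library left out. Shared sequence was searched with 50-base words from 3′ ends. Levels in every library are given for the 3 members with the largest change past the threshold in each comparison and for 18 members picked by role, and other genes of the pathway could be named for the 3 largest changes in each comparison, some of which are not reported here. The members, lists and tests were chosen with earlier results of these data known.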

Additional observations from a re-analysis of the deposited data

Results flagged for a closer look

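*Elovl6* stood out because its change against *in vivo* TECs went in opposite directions in the culture formats, and the difference between the changes was itself tested with edgeR's quasi-likelihood test. The log2 fold change of D3 organoids minus that of 2D culture was 2.26 (adjusted p = 3.30e-08), and that of D7 organoids minus that of 2D culture was 1.82 (adjusted p = 3.57e-07). Both 2D libraries were below, and all 4 organoid libraries above, both *in vivo* libraries. The fall in 2D culture and the rise in D3 organoids were past the threshold, as was the rise in D7 organoids, at 0.56 (SE 0.17, adjusted p = 0.017), though that lost its call without *in vivo* replicate 1, at 0.61 (adjusted p = 0.0526), without *in vivo* replicate 2, at 0.52 (adjusted p = 0.0775), and without D7 replicate 1, at 0.34 (adjusted p = 0.252). The cause was not tested.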

How the results depend on the processing

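The direction of the member median was the same in all 6 comparisons under every setting run. Of 1710 values for single members with all 8 libraries, 1620 kept their direction and side of the threshold, 19 lost and 49 gained a call, and of 1536 values with a library left out, 1384 kept both, 93 lost and 28 gained a call. No value changed sign while past the threshold. Depth limits members with few counts, such as *Idi1* and *Abca1*.

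Without scaling beyond library totals, the median over all genes was -0.24 for 2D culture over *in vivo* TECs (2221 higher and 3802 lower genes, against 2883 and 3150), 0.29 for D3 organoids over 2D culture (3872 and 1886, against 2798 and 2764) and 0.31 for D7 organoids over 2D culture (4340 and 2315, against 3546 and 3059). The member medians were then 0.69, 0.74 and 0.38, and -0.53 for D7 over D3, with 0 members lower in D3 organoids than *in vivo*. Leaving out ribosomal RNA genes gave -0.53 for D7 over D3. With no filter, the medians were 1.72 for D3 organoids over *in vivo* TECs, with 2 members lower, and -0.53 for D7 over D3. With a filter at a mean of 10 CPM, which kept 29 members, they were 0.61 for D3 organoids and 0.27 for D7 organoids over 2D culture, with 0 lower in D3 organoids than *in vivo*. With limma-voom, 2 members were lower in D3 organoids than *in vivo* and 1 was higher at D7 than at D3.

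Same-numbered libraries deviated together with r between 0.03 and 0.13 across genes, which are not independent, so the numbers were taken as names only. With a replicate block, 2 members were lower in D3 organoids than *in vivo*, and the median for D7 organoids over 2D culture was 0.23. *Fasn*, with replicate 1 below replicate 2 in every group, passed the threshold under the block for D3 organoids over 2D culture at 0.72 (adjusted p = 0.0016), for 2D culture over *in vivo* TECs at -0.47 (adjusted p = 0.0289) and for D7 organoids over *in vivo* TECs at 0.62 (adjusted p = 0.00492).

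With a library left out, the count of lower members ranged from 2 to 5 for 2D culture and from 0 to 2 for D3 organoids over *in vivo* TECs, from 0 to 1 for D3 organoids over 2D culture and from 6 to 14 for D7 over D3. The count of higher members ranged from 7 to 15 for D3 organoids and from 3 to 10 for D7 organoids over 2D culture, and from 0 to 1 for D7 over D3. Medians ranged from 0.87 to 1.01, from 1.503 to 1.74 and from 0.93 to 1.16 for 2D culture, D3 and D7 organoids over *in vivo* TECs, from 0.44 to 0.59 and from 0.13 to 0.18 for D3 and D7 organoids over 2D culture, and from -0.55 to -0.43 for D7 over D3. A lone library was assumed to vary like the other groups. The number of all genes past the threshold also moved with the library left out, so these counts of members are not compared with those from all libraries.

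Log2 fold changes that changed sign were not past the threshold. For D7 over D3, *Mvd* was -0.036 with DESeq2 size factors, -0.059 without scaling, -0.065 without ribosomal RNA genes, -0.058 with limma-voom, -0.032 with DESeq2, -0.060 without a filter, -0.050 with only these groups and -0.023 with a replicate block. In the same order, *Scd1* was -0.029, -0.053 and -0.058, then -0.029 with DESeq2, -0.053 without a filter and -0.041 with only these groups, and *Insig2* was 0.017 with limma-voom. Without scaling, *Sqle* was -0.0052 for 2D culture over *in vivo* TECs, and for D3 organoids over 2D culture *Idi1* was 0.053, *Cyp51* 0.016, *Srebf2* 0.17, *Acly* 0.074 and *Scd2* 0.21, where *Abcg1* was -0.013 with limma-voom. With a library left out, values ranged for D7 over D3 from -0.39 to 0.33 (*Mvd*), -0.39 to 0.097 (*Dhcr7*), -0.43 to 0.32 (*Insig2*), -0.0062 to 0.70 (*Fasn*) and -0.083 to 0.065 (*Scd1*). For D7 organoids over 2D culture they ranged from -0.0033 to 0.71 (*Mvd*), -0.12 to 0.62 (*Fdft1*), -1.27 to 0.28 (*Srebf1*), -0.16 to 0.43 (*Insig1*) and -0.26 to 0.76 (*Abca1*), and for D3 organoids over 2D culture from -0.58 to 0.33 (*Idi1*), -0.019 to 0.19 (*Hsd17b7*), -0.29 to 0.13 (*Srebf2*) and -0.78 to 0.54 (*Abcg1*). Over *in vivo* TECs they ranged in D7 organoids from -0.0062 to 1.03 (*Idi1*), -0.014 to 0.092 (*Scap*) and -0.13 to 0.17 (*Insig2*), in D3 organoids from -0.29 to 0.47 (*Insig2*), and in 2D culture from -1.43 to 0.34 (*Dhcr7*) and -0.93 to 0.091 (*Abca1*). The causes of these changes were not tested.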

Other observations

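Genes of fatty acid oxidation, the route that breaks down fatty acids, were listed as well. Of 10 such genes, 2 were higher and 4 lower in 2D culture, 3 higher and 1 lower in D3 organoids, and 5 higher and 1 lower in D7 organoids against *in vivo* TECs. Of all genes, 19.9%, 14.1% and 18.0% were higher and 21.7%, 14.0% and 16.8% lower in the same order, so the higher genes in 2D culture and the lower ones in organoids were near or under the share of all genes. *Ppargc1a*, a coactivator of mitochondrial genes, was at 0.692 and 1.26 CPM *in vivo*, 1.09 and 3.70 in 2D culture, 7.09 and 9.49 in D3 organoids, and 23.5 and 24.1 in D7 organoids, with D7 organoids above all other libraries. Its log2 fold change was 3.03 (SE 0.54, adjusted p = 3.52e-04) in D3 organoids and 4.54 (SE 0.52, adjusted p = 3.48e-06) in D7 organoids over *in vivo* TECs. The *in vivo* libraries held 4 and 9 counts of *Ppargc1a*, so the size of these changes is coarse. *Ppara*, the nuclear receptor of this route, was at 0.865 and 4.35 CPM *in vivo*, 0.181 and 0.370 in 2D culture, 3.88 and 1.81 in D3 organoids, and 9.40 and 8.68 in D7 organoids, and passed the threshold upwards in D3 and D7 organoids against 2D culture, whose libraries held 1 and 2 counts, too few for a fold.

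Of 11 genes for the uptake, transport and esterification of cholesterol, 5 were higher and 2 lower in 2D culture, 3 higher and 2 lower in D3 organoids, and 3 higher and 2 lower in D7 organoids against *in vivo* TECs, and their median log2 fold change was -0.04, 0.24 and 0.12 in the same order. The counts of lower genes were near the shares of all genes given above. From D3 to D7, *Erlin1*, which codes for a sterol-binding protein of the endoplasmic reticulum, fell with a log2 fold change of -2.11 (SE 0.35, adjusted p = 4.65e-04), and its levels were 17.8 and 12.5 CPM *in vivo*, 14.5 and 7.78 in 2D culture, 26.7 and 26.4 in D3 organoids, and 7.30 and 4.73 in D7 organoids.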
